A study of Mus musculus with 4 samples.

Results

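The 8 *Gimap* genes listed for the mouse (*Gimap1*, *Gimap3*, *Gimap4*, *Gimap5*, *Gimap6*, *Gimap7*, *Gimap8*, and *Gimap9*) and *Il2rg* were followed through 4 RNA-seq libraries of sorted cells from the main olfactory epithelium (MOE), the sheet of nasal tissue that holds the olfactory sensory neurons (OSNs). They are 9 of the 24421 genes with a deposited value. The *Gimap* genes were taken by name, and the set was built around *Gimap6* and *Il2rg* because these stood among the genes with the largest decrease in both reporter-positive libraries. The difference between reporter-positive and reporter-negative cells was therefore used to choose them, and it is given here as a description.

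A TAAR enhancer 1-GFP transgenic line (the GFP line) gave the GFP-positive and GFP-negative cells. A TAAR enhancer 2-tdTomato transgenic line (the tdTomato line) gave the tdTomato-positive and tdTomato-negative cells. Each reporter sits behind the Hsp68 minimal promoter and a cloned enhancer of the *Taar* gene cluster, in a PiggyBac transposon, and each line descends from 1 kept founder. All 4 libraries are from adult C57BL/6 mice per the labels, while the study's reporting summary gives juvenile ages for both lines. Reporter-negative cells are from the same kind of animal and carry the same transgene as the reporter-positive cells of their line. Each group has 1 library, so the spread between replicates is unknown and no difference was tested.

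GIMAPs, the GTPases of immunity-associated proteins, share a GTP-binding domain of the AIG1 type and are known mainly from lymphocytes, where several members are needed for the survival of mature T and B cells. *Il2rg* encodes the common gamma chain, the subunit shared by the receptors for IL2, IL4, IL7, IL9, IL15, and IL21, which signals through the kinase JAK3. Loss of this chain causes X-linked severe combined immunodeficiency. Neither OSNs nor the other epithelial cells of the nose are known for these genes, while the olfactory mucosa also holds resident and blood-borne immune cells.

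In the GENCODE M21 annotation of GRCm38 (mm10), the 8 *Gimap* genes lie together on chromosome 6 from 48647234, the start of *Gimap8*, to 48770851, the end of *Gimap3*, a span of 123618 bases. *Gimap3* and *Gimap6* are on the minus strand and the other 6 are on the plus strand. *Il2rg* lies on the minus strand of chromosome X from 101264378 to 101268255, and its longest annotated transcript has 8 exons. The 250 bases before the RefSeq start of 3 of the genes are shown here. *Gimap6* and *Il2rg* are the genes the set was built around, and *Gimap1* is the 1 member that went the other way in tdTomato-positive cells. The sequences are from RefSeq on GRCm38.p6, 5′ to 3′ on the strand of each gene, at chr6:48708245-48708494 (minus), chrX:101268256-101268505 (minus), and chr6:48738797-48739046 (plus). Capitals mark GGAAG, the core of many sites bound by ETS-family transcription factors, or its reverse complement CTTCC.
Gimap6: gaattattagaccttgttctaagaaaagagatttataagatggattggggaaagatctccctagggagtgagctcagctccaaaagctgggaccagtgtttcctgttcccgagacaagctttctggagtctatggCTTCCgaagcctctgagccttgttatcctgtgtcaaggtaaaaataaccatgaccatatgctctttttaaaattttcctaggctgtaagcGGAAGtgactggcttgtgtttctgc
Il2rg: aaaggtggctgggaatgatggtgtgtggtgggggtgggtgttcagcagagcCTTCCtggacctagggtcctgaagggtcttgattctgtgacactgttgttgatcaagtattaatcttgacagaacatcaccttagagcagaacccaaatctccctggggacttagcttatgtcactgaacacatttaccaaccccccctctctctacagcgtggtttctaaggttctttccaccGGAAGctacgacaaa
Gimap1: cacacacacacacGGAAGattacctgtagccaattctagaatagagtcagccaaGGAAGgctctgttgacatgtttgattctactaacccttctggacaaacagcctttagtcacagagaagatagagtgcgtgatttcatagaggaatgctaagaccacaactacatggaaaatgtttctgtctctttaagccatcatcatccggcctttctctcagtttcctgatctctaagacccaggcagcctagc

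GGAAG was found on either strand in 9 of the 10 windows of 250 bases that the table holds for the 9 genes, and in 64.1% of all 32851 windows. The longer CGGAAG, which contains it, was found for *Gimap1*, *Gimap6*, *Gimap8*, and *Il2rg* (4 of 10 windows), and in 13.6% of all windows. TGTGGT, the core bound by RUNX factors, was found for *Gimap1*, *Gimap4*, *Gimap7*, and *Il2rg* (4 of 10 windows), and in 14.05% of all windows. The windows of *Gimap1* and *Il2rg* hold all of these motifs. Any link between the motifs and the levels of the genes was not tested. These matches describe letters in a window and do not show binding.

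Values are TPM, which are transcript shares of a library corrected for transcript length, so that levels can be compared between genes. Each library sums to 1000000 TPM. Sequencing depth is unknown, and for values well below 1 TPM neither a detection limit nor a meaningful ratio can be given. GFP-negative, GFP-positive, tdTomato-negative, and tdTomato-positive cells had 16386, 16840, 15665, and 15096 genes above 0 TPM. Fold changes are log2 ratios of TPM + 1, reporter-positive over reporter-negative. Their median over the 16917 genes that reached 1 TPM in any library was -0.81 in the GFP line and -0.16 in the tdTomato line. The 12 marker genes of mature OSNs, the cells the tissue label calls for, were present in every library, and *Omp* was between 1108 and 10108 TPM. Their summed TPM was 30723 in GFP-negative against 3333 in GFP-positive cells, and 33144 in tdTomato-negative against 15021 in tdTomato-positive cells. Presence of these genes does not give the share of OSNs in a library.

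*Gimap6* and *Il2rg* were the most abundant members in both reporter-negative libraries and were close to 0 in both reporter-positive ones. *Il2rg* was 131 TPM in GFP-negative cells, 1.10 TPM in GFP-positive cells, 125 TPM in tdTomato-negative, then 0.036 TPM in tdTomato-positive cells. Its log2 fold change was -5.97 in the GFP line and -6.92 in the tdTomato line. *Gimap6*, whose product has been linked to autophagy in lymphocytes, was 136, 0.53, 114, and 0.073 TPM in the same order of libraries, with log2 fold changes of -6.48 and -6.75. When the 16917 genes were ordered from the most lowered, *Gimap6* was number 15 in the GFP line and 33 in the tdTomato line. *Il2rg* was number 40 and 22. These positions are what the set was chosen on. In bulk RNA, fewer cells of a type and less RNA per cell cannot be told apart.

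**Figure D1:**
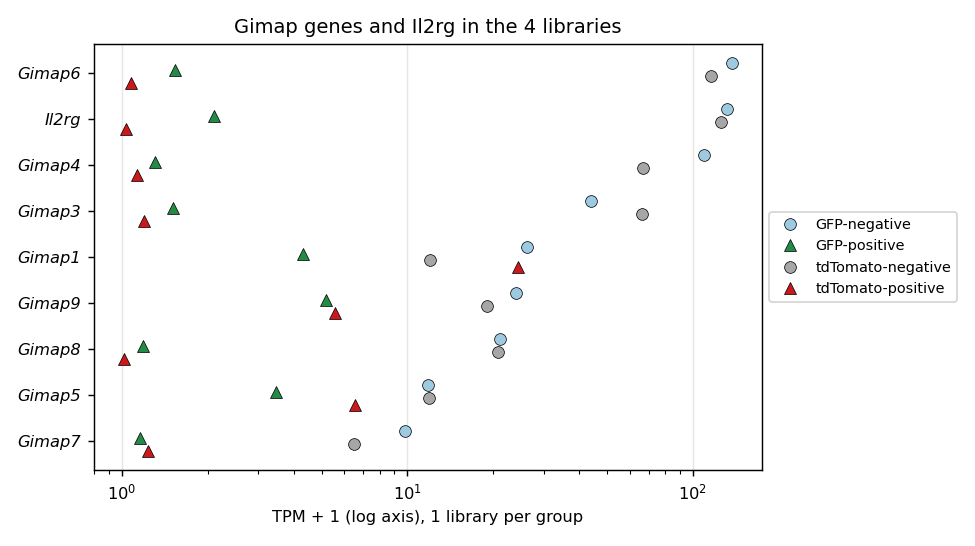
TPM + 1 on a log axis for the 9 genes, with 1 point for each library (circles reporter-negative, triangles reporter-positive), ordered by the level in GFP-negative cells. Both triangles lie to the left of both circles for 8 genes, and for *Gimap1* the tdTomato-positive point, at 23.4 TPM, lies beside the GFP-negative one, at 25.3 TPM.

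*Gimap4*, *Gimap3*, and *Gimap8* followed the same pattern. *Gimap4*, which influences the pace of T cell death, was 109 TPM in GFP-negative against 0.30 TPM in GFP-positive cells, while the tdTomato line had 65.7 TPM in negative against 0.13 TPM in positive cells. *Gimap3*, a close relative of *Gimap5*, was 42.9 and 0.51 TPM in the GFP line and 65.1 and 0.19 TPM in the tdTomato line. *Gimap8*, which is unusual in having more than one GTP-binding domain, was 20.02 and 0.19 TPM in the first line and 19.7 and 0.016 TPM in the second. All 3 genes were below 1 TPM in both reporter-positive libraries. In the GFP and tdTomato lines, respectively, their log2 fold changes were -6.40 and -5.88 (*Gimap4*), -4.86 and -5.79 (*Gimap3*), and -4.14 and -4.35 (*Gimap8*). *Gimap7* was the least abundant member in both reporter-negative libraries. It was 8.79 TPM in GFP-negative, 0.15 TPM in GFP-positive, 5.50 TPM in tdTomato-negative, then 0.23 TPM in tdTomato-positive cells, with log2 fold changes of -3.09 and -2.40.

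*Gimap9*, *Gimap5*, and *Gimap1* kept values above 2 TPM in both reporter-positive libraries. *Gimap9* was 23.0 TPM in GFP-negative against 4.19 TPM in GFP-positive cells, while the tdTomato line had 18.0 TPM in negative against 4.57 TPM in positive cells, with log2 fold changes of -2.21 and -1.77. *Gimap5*, which is required for the survival of peripheral T cells, was 10.8 and 2.46 TPM in the GFP line and 10.9 and 5.54 TPM in the tdTomato line, with log2 fold changes of -1.76 and -0.87. *Gimap1*, which is needed for mature T and B cells, was lower in GFP-positive cells (3.31 TPM) than in GFP-negative cells (25.3 TPM), a log2 fold change of -2.61. In the tdTomato line it was higher in tdTomato-positive cells (23.4 TPM) than in tdTomato-negative cells (11.0 TPM), a log2 fold change of 1.02. It was the 1 member with opposite directions in the lines.

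At a limit of 4-fold (a log2 fold change of -2 or below), 8 of the 9 members were lower in GFP-positive cells, beside 16.0% of the 16917 genes. In tdTomato-positive cells 6 of the 9 were lower, beside 10.6% of genes. The same 6 genes, *Gimap3*, *Gimap4*, *Gimap6*, *Gimap7*, *Gimap8*, and *Il2rg*, passed the limit in both lines, as did 5.95% of genes. In the GFP line the count was 6 with a median-ratio scaling, beside 9.12% of genes, since *Gimap1* and *Gimap9* were at -1.86 and -1.44. It was 7 after rescaling without the highest genes, beside 12.1% of genes, with *Gimap9* at -1.80. With a pseudocount of 10, *Gimap3*, *Gimap4*, *Gimap6*, and *Il2rg* passed the limit in each line (4 of 9), beside 4.30% of genes in the GFP line and 2.68% in the tdTomato line. With the pseudocount of 1, a gene below 3 TPM in the reporter-negative library cannot reach the limit. All 9 members had at least 1 TPM in a library. As the set was chosen on these contrasts, nothing is read from the counts. The members nearest the limit were *Gimap9* inside and *Gimap5* outside in the GFP line, and *Gimap7* inside and *Gimap9* outside in the tdTomato line. The median log2 fold change of the 9 members was -4.14 and -4.35 in the GFP and tdTomato lines.

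The make-up of the *Gimap* transcripts differed between reporter-positive and reporter-negative cells. The summed TPM of the 8 genes was 375 in GFP-negative against 11.6 in GFP-positive cells, a log2 ratio of -5.01. It was 310.3 in tdTomato-negative against 34.2 in tdTomato-positive cells (log2 ratio -3.18). *Gimap6* made up 36.2% of the total in GFP-negative cells and 36.9% in tdTomato-negative cells, and *Gimap4* made up 29.0% and 21.2%. *Gimap1*, *Gimap5*, and *Gimap9* together made up 15.7% in GFP-negative and 12.9% in tdTomato-negative cells, but 85.6% in GFP-positive and 98.1% in tdTomato-positive cells. *Gimap1* alone held 68.5% of the *Gimap* total in tdTomato-positive cells. The summed TPM of the other 5 *Gimap* genes was 316 in GFP-negative, 1.68 in GFP-positive, 270.4 in tdTomato-negative, and 0.65 in tdTomato-positive cells. *Gimap1*, *Gimap5*, and *Gimap9* were grouped after their values were seen.

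**Figure D2:**
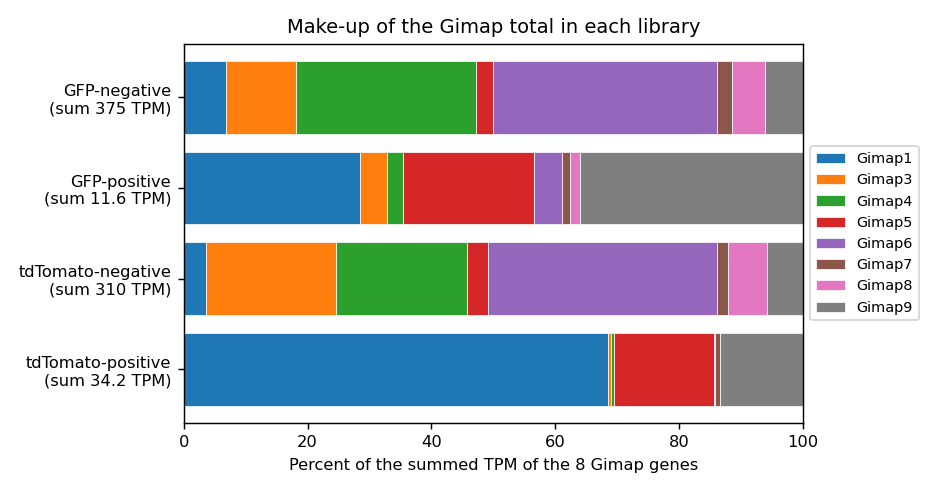
Bars show the percent of the summed *Gimap* TPM that each of the 8 genes contributed in each library, with the sum given beside the name. *Gimap6*, *Gimap4*, and *Gimap3* fill most of both reporter-negative bars, and *Gimap1*, *Gimap5*, and *Gimap9* fill 85.6% and 98.1% of the reporter-positive bars.

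The annotation bears on how far single values can be trusted. *Gimap3* and *Gimap5* share sequence, with 190 of the 50-base windows of their protein-coding transcripts in common (7.52% of those of *Gimap3* and 9.98% of those of *Gimap5*), and no other pair of members shares a window. *Gm28053*, which overlaps *Gimap7*, *Gimap1*, and *Gimap5* on the same strand, shares 8.48% of the windows of *Gimap1*, 5.51% of those of *Gimap5*, and 2.37% of those of *Gimap7*. *Gimap1os* overlaps *Gimap1* on the opposite strand, and 8.59% of the *Gimap1* windows occur in antisense in other transcripts, those of *Gimap1os* among them. *Gm20489* overlaps *Il2rg* on the same strand and shares 40.8% of its windows. None of *Gm28053*, *Gimap1os*, and *Gm20489* has a row in the values used here. Whether reads were counted by strand is not given in the sources used here, so reads of *Gimap1* and *Gimap1os* cannot be told apart, and the part of these overlaps in the *Gimap1* values was not tested. *Gimap9*, *Gimap4*, and *Gimap8* share no window with any other gene.

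Genes beside the *Gimap* cluster did not follow it. The nearest listed genes before the cluster, *AI854703*, *Zfp775*, and *Repin1*, had log2 fold changes between -1.58 and 0.79 in the GFP line and between -0.24 and 0.54 in the tdTomato line. The nearest after it were higher in both reporter-positive libraries. *Tmem176b*, which lies 62967 bases from the end of *Gimap3*, was 71.7 TPM in GFP-negative against 450.4 TPM in GFP-positive cells, while the tdTomato line had 104 TPM in negative against 344 TPM in positive cells. *Tmem176a* had log2 fold changes of 3.50 and 1.53, and *Aoc1*, which encodes the diamine oxidase that breaks down histamine, had log2 fold changes of 4.63 and 5.10. *Aoc1* was 0.025 TPM in GFP-negative cells and listed at 0 in tdTomato-negative cells, so both of its values depend on the pseudocount. Beside *Il2rg*, *Gm614* was 6.02 TPM in GFP-negative cells, listed at 0 in GFP-positive cells, 17.5 TPM in tdTomato-negative, then 0.079 TPM in tdTomato-positive cells. It lies 386 bases from *Il2rg* and overlaps *Gm20489*. *Foxo4*, *Snx12*, *Med12*, and *Nlgn3*, the other near genes above 0 TPM in every library, had log2 fold changes from -2.55 to -1.10 in the GFP line and from -0.83 to -0.55 in the tdTomato line. *Gjb1*, which encodes a connexin, was listed at 0 in reporter-negative cells of both lines and was 17.9 TPM in GFP-positive and 4.83 TPM in tdTomato-positive cells.

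**Figure D3:**
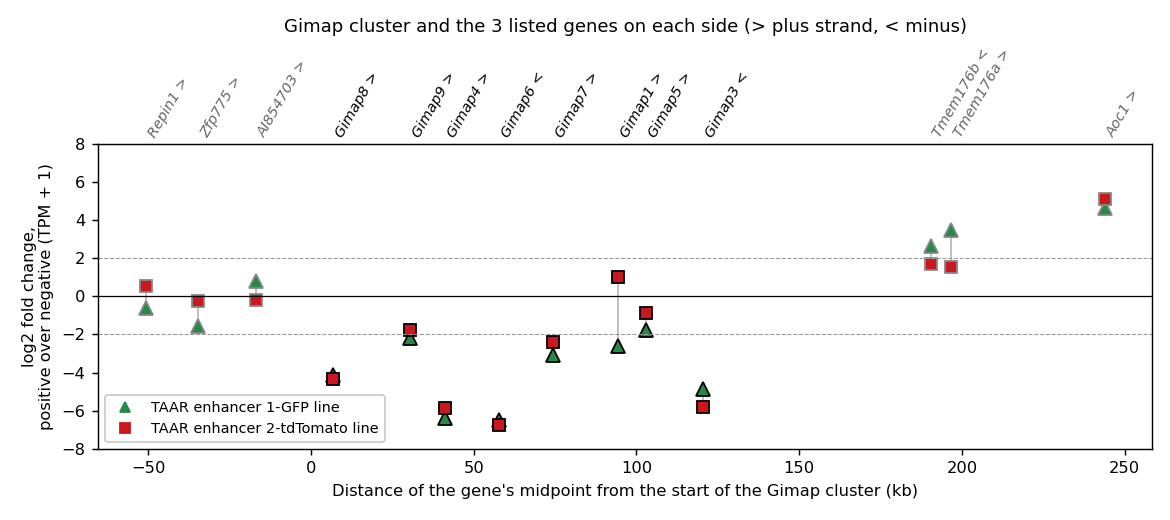
Log2 fold change (TPM + 1, reporter-positive over reporter-negative) against the distance of each gene's midpoint from the start of the *Gimap* cluster in kb, for the 8 *Gimap* genes and the 3 listed genes on each side. Triangles are the GFP line, squares the tdTomato line, and dashed lines mark 4-fold. *Gimap4*, *Gimap6*, *Gimap3*, and *Gimap8* lie below -4 in both lines, *Gimap1* has its square above 0, and *Tmem176b*, *Tmem176a*, and *Aoc1* lie above 0.

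The subunits that pair with the common gamma chain were mostly lower in reporter-positive cells as well. Of the 7 partner genes, 4 were at least 4-fold lower in the GFP line and 6 in the tdTomato line, beside the 16.0% and 10.6% of all genes. *Il9r* and *Il15ra* were below 3 TPM in GFP-negative cells and could not reach the limit there, so these counts are not comparable between the lines. *Il2rb*, the signalling chain that joins *Il2rg* in the IL2 and IL15 receptors, was the most abundant of them in reporter-negative cells. It was 65.0 TPM in GFP-negative, 0.46 TPM in GFP-positive, and 83.3 TPM in tdTomato-negative cells, and was listed at 0 in tdTomato-positive cells. *Il7r*, the IL7 receptor chain of lymphocytes, was 27.6, 0.69, 39.6, and 0.055 TPM, and *Il21r* was 29.4, 0.030, 38.1, and 0.045 TPM, in the same order. *Il2ra*, the alpha chain of the IL2 receptor, was 6.62 TPM in GFP-negative, 0.61 TPM in GFP-positive, and 6.42 TPM in tdTomato-negative cells. It was listed at 0 in tdTomato-positive cells. *Il9r* was 2.42 and 4.66 TPM in GFP-negative and tdTomato-negative cells and was listed at 0 in both reporter-positive libraries.

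*Il4ra* and *Il15ra* kept clear values in reporter-positive cells. *Il4ra*, which also forms receptors without the common gamma chain, was 28.1 TPM in GFP-negative, 8.33 TPM in GFP-positive, 44.8 TPM in tdTomato-negative, then 7.24 TPM in tdTomato-positive cells. *Il15ra*, which can present IL15 to other cells, was 2.91 and 10.1 TPM in GFP-negative and GFP-positive cells, a log2 fold change of 1.51. In the tdTomato line it was 12.5 and 13.2 TPM, a log2 fold change of 0.075. *Il15ra* was the 1 partner that was not lower in either line.

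**Figure D4:**
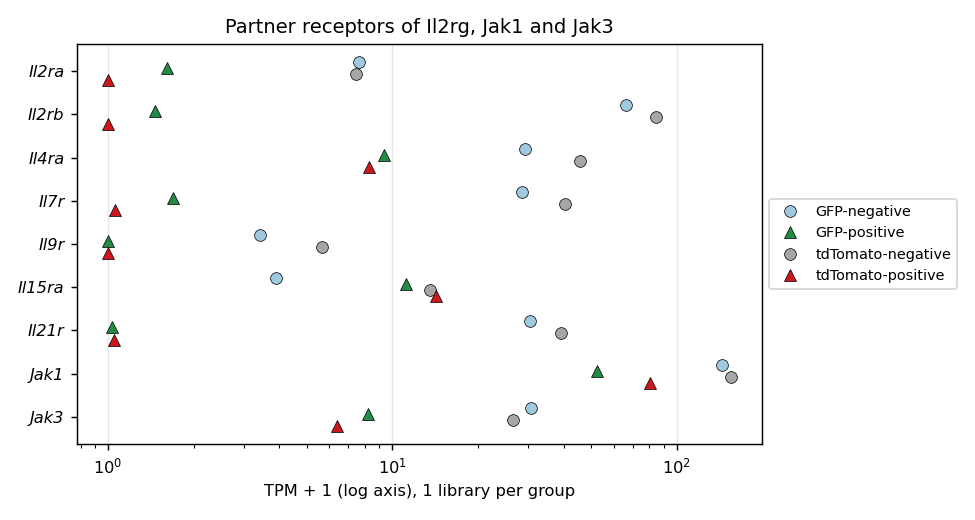
TPM + 1 on a log axis for the 7 receptor genes that pair with *Il2rg*, and for *Jak1* and *Jak3*, with 1 point for each library. *Il2rb*, *Il7r*, and *Il21r* were below 1 TPM in both reporter-positive libraries (triangles), while *Il4ra*, *Il15ra*, and *Jak1* were above 7 TPM there.

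Of the 10 genes listed for signalling below the chain, none was at least 4-fold lower in GFP-positive cells, whereas *Jak3* and *Cish* (2 of 10) were in tdTomato-positive cells, beside 16.0% and 10.6% of all genes. *Socs1* was below 3 TPM in both reporter-negative libraries and could not reach the limit. *Jak3*, the kinase that binds the common gamma chain, was 29.7 TPM in GFP-negative, 7.22 TPM in GFP-positive, 25.6 TPM in tdTomato-negative, then 5.40 TPM in tdTomato-positive cells, with log2 fold changes of -1.90 and -2.06, just outside and just inside the limit. *Jak1*, which serves many cytokine receptors, was 143, 51.5, 154, and 79.3 TPM. *Stat6*, which signals for IL4, went furthest against the list in the tdTomato line, and was at 45.7 and 47.6 TPM in the GFP line and at 46.6 and 97.3 TPM in the other, a log2 fold change of 1.05 in the latter. *Stat3* and *Socs3*, which respond to cytokines in many cell types, were between 36.5 and 119 TPM in every library, and their log2 fold changes ran from -1.38 to 0.26. The median of the list was -0.65 and -0.81 in the GFP and tdTomato lines, and a median-ratio scaling, which moved the median of all genes in the GFP line by 0.79, turned the first to 0.20. The 6 cytokine genes were low throughout. *Il15* was the highest at 6.28, 4.39, 11.8, and 6.58 TPM. *Il2* and *Il7* were at most 2.51 and 2.42 TPM, and *Il4* and *Il9* were listed at 0 in every library. Genes of the BCL2 family, which control cell survival and which GIMAPs have been reported to bind, had median log2 fold changes of -1.20 and -0.57, and none of the 7 was at least 4-fold lower in either line. The highest of them were *Bax*, *Mcl1*, and *Bcl2l1*, between 45.6 and 251 TPM in every library. *Bad*, which promotes cell death, was the 1 gene of the family that was not lower in the tdTomato line, at 61.6 and 69.7 TPM (log2 fold change 0.18).

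Marker genes of leukocytes moved with the members. The summed TPM of 13 genes found in most leukocytes was 2607 in GFP-negative, 134 in GFP-positive, 2284 in tdTomato-negative, and 105 in tdTomato-positive cells. Of these genes, 12 were at least 4-fold lower in GFP-positive cells and all 13 in tdTomato-positive cells, beside 16.0% and 10.6% of all genes. The median log2 fold changes of the 13 were -5.01 and -4.99. *Ptprc*, which encodes CD45, was 178, 3.14, 194, and 1.42 TPM, and *Cd52* was 661, 13.0, 546, and 13.4 TPM. *Arhgdib* and *Coro1a*, the next highest in GFP-negative cells, had log2 fold changes of -3.67 and -5.38 in the GFP line and -5.83 and -4.43 in the tdTomato line. *Lcp1* was the exception in size, at 236 and 65.3 TPM in the GFP line and 236 and 56.0 TPM in the tdTomato line.

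The lymphocyte lists were lower in both lines. Their counts at 4-fold stand beside 16.0% of all genes in the GFP line and 10.6% in the tdTomato line. Of 16 T cell genes, 15 were at least 4-fold lower in each line, with medians of -4.01 and -4.50, and *Lat*, *Cd3g*, and *Cd2* reached the highest TPM in any library. In tdTomato-negative cells *Cd2*, at 42.6 TPM, was below *Tcf7* and *Lck*, at 68.0 and 64.3 TPM. All 9 B cell genes were at least 4-fold lower in each line, with medians of -5.92 and -4.42, and *Cd79b* and *Cd79a* were among the highest. Of 12 NK cell genes, 12 and 9 were, with medians of -3.81 and -2.81, and *Gzma*, *Nkg7*, and *Gzmb* were the highest in GFP-negative cells. *Gzmb* was 55.2 TPM in GFP-negative but 2.08 TPM in tdTomato-negative cells, the lowest of the list there, where it and *Klrb1c* were below 3 TPM and could not reach the limit. Summed over the list, T cell genes ranged from 541 to 716 TPM in reporter-negative and from 16.2 to 22.4 TPM in reporter-positive libraries. The corresponding sums were 275 to 849 TPM and 1.91 to 5.22 TPM for B cell genes, and 159 to 432 TPM and 6.80 to 9.38 TPM for NK cell genes. *Cd3e* was listed at 0 in GFP-positive cells. The part of these cells in the values of the members was not tested.

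Myeloid genes were lower too, but less evenly. At 4-fold, 16.0% of all genes were lower in the GFP line and 10.6% in the tdTomato line. Of the 9 neutrophil genes with a value, 8 were at least 4-fold lower in each line, with medians of -5.89 and -6.16. *S100a9*, *Ngp*, and *S100a8* were the highest in GFP-negative cells, at 3215, 2552, and 2347 TPM. *Ltf*, which glands also secrete, went against the list in GFP-positive cells, at 665 TPM in GFP-negative against 1691 TPM in GFP-positive cells. All 10 macrophage genes were at least 4-fold lower in GFP-positive cells (median -3.62), compared with 3 of 10 in tdTomato-positive cells (median -1.18), where *C1qb*, *C1qa*, and *C1qc* kept 27.7, 21.7, and 15.4 TPM. *Cx3cr1*, *Aif1*, and *Fcgr1* were below 3 TPM in tdTomato-negative cells and could not reach the limit there, so the counts of the lines are not comparable. Some *Gimap* genes are also known from blood vessels. Apart from *Pecam1*, which leukocytes share and which was 41.2 and 41.0 TPM in the GFP-negative and tdTomato-negative libraries, the other 13 endothelial genes were at most 6.40 TPM in any library. *Emcn* and *Vwf* were the highest of these, at 6.40 TPM in GFP-negative and 6.36 TPM in tdTomato-positive cells. *Cdh5*, the gene of the endothelial cadherin, was at most 1.79 TPM. The part of vessel cells in the values of the members was not tested.

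The other cells of the tissue went different ways. The 12 mature OSN genes, of which *Omp*, *Stoml3*, and *Gfy* were the highest in reporter-negative cells, had medians of -3.08 and -1.04, and 12 and 0 of them were at least 4-fold lower. The 5 sustentacular cell genes had medians of 2.44 and 0.064, with *Cyp2a5*, *Sult1c1*, and *Cyp2g1* the highest. *Cyp2g1* and *Cyp1a2*, both cytochrome P450 genes, were higher in GFP-positive and lower in tdTomato-positive cells than in the reporter-negative cells of the same line. The 6 multiciliated cell genes had medians of 1.16 and 2.92, and *Ccdc153*, *Foxj1*, and *Rsph1* were the highest in reporter-positive cells. *Pifo* alone was lower in GFP-positive cells, at 163 TPM in GFP-negative against 120 TPM in GFP-positive cells.

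**Figure D5:**
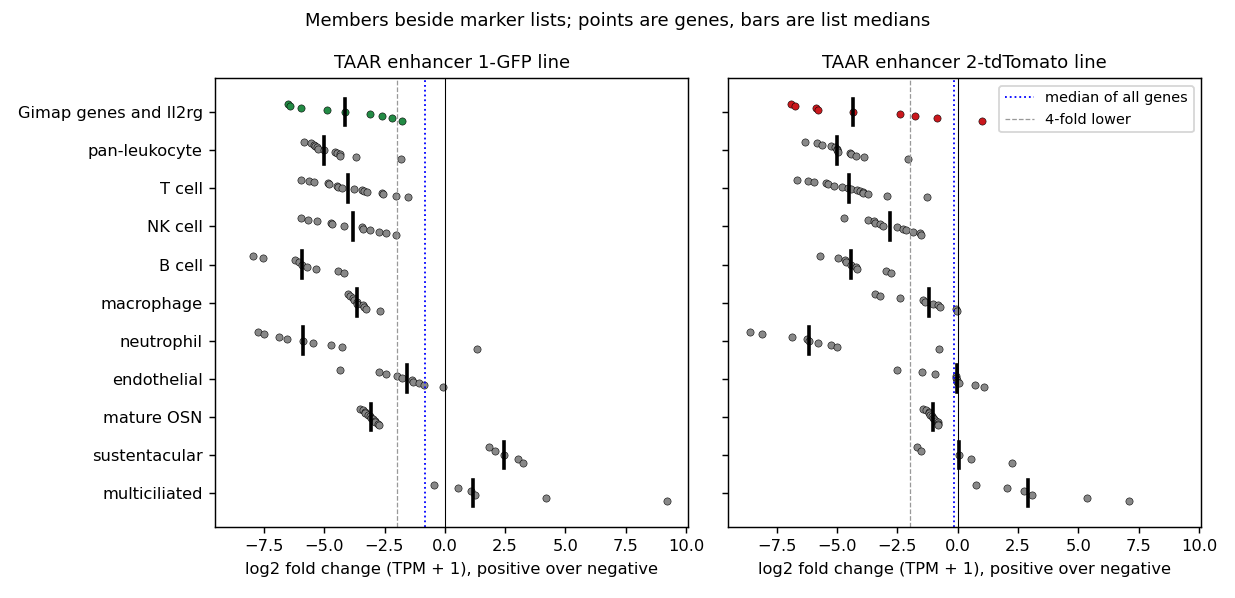
Log2 fold change (TPM + 1, reporter-positive over reporter-negative) of the 9 members and of the genes of 10 marker lists that reached 1 TPM in any library, by line. Points are genes, black bars list medians, the dotted line the median of all genes, and the dashed line 4-fold lower. The members spread from -6.48 to -1.76 in the GFP line and from -6.92 to 1.02 in the tdTomato line. *Gimap1* in the tdTomato line lies above every gene of the leukocyte lists, and the other points lie within their range.

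Set against the pan-leukocyte total of the same library, which does not depend on how a library is scaled, the share of *Il2rg* was lower in reporter-positive cells, and the direction of the *Gimap* total depended on single genes. *Il2rg* was chosen for its decrease in both lines, so this comparison reuses the values that chose it. *Il2rg* was 5.01% of the pan-leukocyte sum in GFP-negative and 0.82% in GFP-positive cells, and 5.46% in tdTomato-negative and 0.034% in tdTomato-positive cells, the last of which rests on 0.036 TPM. The *Gimap* sum was 14.4% and 8.72% of it in the GFP line, and 13.6% and 32.4% in the tdTomato line. Without *Gimap1* the direction turned in the tdTomato line with the full denominator, with 13.1% and 10.2%. It did not turn with *Lcp1* also left out, at 14.6% and 21.7%, or with *Ptprc* alone, at a log2 ratio of 2.30. Without *Lcp1* in the denominator, the log2 ratio of the *Gimap* percent in the GFP line turned from -0.72 to 0.11, and with *Ptprc* alone as the denominator it was 0.81. For *Il2rg* in the same line the log2 ratio went from -2.61 to -1.77 and -1.07 with these 2 denominators. The 5 *Gimap* genes other than *Gimap1*, *Gimap5*, and *Gimap9* were 12.1% and 1.26% of the pan-leukocyte sum in the first line and 11.8% and 0.61% in the second. Without *Lcp1* their shares were 13.3% and 2.47%, and 13.2% and 1.31%. With *Ptprc* alone as the denominator, their log2 ratios were -1.73 and -1.61, against -3.27 and -4.27 with the pan-leukocyte sum. The 5 genes were set apart after their values were seen, so their lower share reuses those values.

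The reporter-negative libraries were also compared with each other. The choice of *Gimap6* and *Il2rg* favoured high values in both of these libraries, so their likeness here is a description as well. *Gimap6*, *Il2rg*, *Gimap8*, and *Gimap5* were closest, with log2 ratios of tdTomato-negative over GFP-negative cells (TPM + 1) from -0.25 to 0.019. *Gimap3* was higher in tdTomato-negative cells (0.59), and *Gimap4* (-0.72), *Gimap7* (-0.59), and *Gimap9* (-0.34) were lower. *Gimap1* differed most (-1.13) and was the 1 member at least 2-fold apart, beside 11.6% of all genes that were at least 2-fold lower and 10.7% that were at least 2-fold higher in tdTomato-negative cells. The median of the members was -0.25 and that of all genes 0.016. The lymphocyte lists did not move together here, with medians of 0.58 for T cell, -0.84 for NK cell, and -1.51 for B cell genes, and the macrophage and neutrophil lists had medians of -2.09 and -1.69. With 1 library each, it cannot be told apart whether these differences belong to the lines, the mice, or the sorts.

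Across all 24421 genes, the values most like those of *Il2rg* over the 4 libraries, by Euclidean distance of log2(TPM + 1), were those of *Hmha1* (distance 0.21), *Sept1* (0.36), *Gimap6* (0.48), *Olfr1348* (0.55), and *Lsp1* (0.64). *Hmha1*, a gene of hematopoietic cells, was 142 TPM in GFP-negative, 1.35 TPM in GFP-positive, 126 TPM in tdTomato-negative, then 0.073 TPM in tdTomato-positive cells. *Olfr1348*, an odorant receptor gene, was 119, 1.57, and 169 TPM in the first 3 libraries and was listed at 0 in tdTomato-positive cells. The genes nearest to *Gimap6* were *Il2rg* (0.48), *Lat* (0.51), *Hmha1* (0.64), *Sept1* (0.69), and *Gimap4* (0.89). *Lat*, an adaptor of the T cell receptor, was 95.8, 0.57, 113, and 0.14 TPM. With 4 points, 1 for each library, such likeness rests mainly on the gap between reporter-negative and reporter-positive cells.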

How the data were processed

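RNA was extracted from sorted cells and made into libraries with Vazyme kits per the labels, while the methods of the study give the Smart-seq2 procedure. The authors deposited TPM values for each gene symbol, on mm10. The submitters' processing notes name Trimmomatic 0.36 and Salmon 1.4.0, while the methods name Hisat2, Cufflinks, and featureCounts. The gene annotation and any filter on genes are not given in the sources used here. TPM values were used as deposited. Sequencing depth is unknown, so no intervals were calculated.

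Fold changes used a pseudocount of 1, which understates changes of low genes, and genes that reached 1 TPM in any library. A gene was called lower at 4-fold. With 1 library for each group there was no test. The fold change calculation was checked on simulated libraries with large known decreases in genes of at least 10 TPM. That check does not bear on low values or on the spread between replicates. The members and lists were chosen with earlier results of these data known. Named genes are the members, the receptor partners and *Jak3*, up to 3 genes with the highest TPM of each other list and those with at least 10 TPM that went against it, the 5 nearest genes to *Gimap6* and *Il2rg*, and the 3 nearest listed genes on each side. Others were named after their values were seen. One gene that the rule names is not reported here. One listed neutrophil gene, *Ly6g*, has no row in the values used here. Alternatives were pseudocounts of 0.1 and 10, other TPM minimums and fold limits, other denominators, a median-ratio scaling over 11943 genes, and a rescaling without 24 of the highest genes. Python 3.11.15, NumPy 2.4.6, and pandas 2.3.3 were used.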

Additional observations from a re-analysis of the deposited data

Results flagged for a closer look

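Of the members, *Gimap1* went in opposite directions in the lines by at least 2-fold each way, with log2 fold changes of -2.61 in the GFP line and 1.02 in the tdTomato line. Of the listed marker genes that reached 10 TPM in a library, *Cyp2g1* did so with 2.06 and -1.54, and *Cyp1a2* with 3.02 and -1.67. With 1 library for each group, the difference between the lines was not tested.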

How the results depend on the processing

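Fold changes compare the reporter-positive and reporter-negative library of the same line, and no group has a second library. The lines carry different enhancers and reporters, so they were not treated as replicate pairs, and no paired test was run. A log2 value is said to have moved when it changed by more than 0.58, and a count when it changed by more than 1.5 times. Each member kept its direction in both lines under both other pseudocounts and both scalings, and *Gimap1* in the tdTomato line ranged from 0.67 to 1.16. The median-ratio scaling shifted the median of all genes by 0.79 in the GFP line and 0.14 in the tdTomato line, and removal of the highest genes shifted it by 0.44 and 0.049.

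The pseudocount moved the median of the members to -6.12 and -7.42 (0.1) and to -1.56 and -1.57 (10) in the GFP and tdTomato lines. With 10, 4 members were at least 4-fold lower in the first line, beside 4.30% of all genes, and 5 and 3 of the 14 gene lists had a median at least 4-fold lower, against 8 and 6 with 1. The log2 ratio of the *Gimap* sum was -4.13 with the median-ratio scaling in the first line, -4.43 and -2.52 without *Gimap6*, and -4.80 in the second line without *Gimap1*, an alternative chosen after seeing the data. The median of the signalling list turned to 0.20 with the median-ratio scaling in the first line, which shifts all genes upward.

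The log2 ratio of the *Gimap* percent of a leukocyte denominator was -0.72 and 1.25 in the 2 lines. It turned to 0.81 in the first line and was 3.91 in the second with *Ptprc* alone, and turned to 0.047 in the first with T cell genes. It was 0.11 and 2.19 without *Lcp1*, and turned to -0.36 in the second without *Gimap1*. With *Gimap1* left out, it was 0.57 in the second line without *Lcp1* and 2.30 with *Ptprc*. The alternatives without *Lcp1* or *Gimap1* were chosen after seeing the data. For *Il2rg* it was -2.61 and -7.34, and -1.07 and -4.68 with *Ptprc*, -1.83 in the first line with T cell genes, and -1.77 and -6.40 without *Lcp1*. The values of the second line rest on *Il2rg* at 0.036 TPM with no pseudocount and do not measure the size of the decrease. The cause of these moves was not tested. The unknown depth limits values well below 1 TPM most.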
